A study of Mus musculus with 8 samples.

Results

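Transcripts of 10 genes of mitochondrial one-carbon metabolism and of the integrated stress response were followed in the left ventricle of mice fed a low salt or a normal salt diet. The genes are Mthfd1l, Mthfd2, Shmt1, Shmt2, Phgdh, Psat1, Asns, Trib3, Atf4 and Gdf15, and every non-control array probe that carries one of these names was taken, 16 probes of 39429 in all. The genes were chosen on their measured diet differences in these same mice, since some of them had already been seen to differ, so their own diet differences are given as a description, without a test. The low salt group was 4 male C57Bl/6j mice kept for 8 weeks on food with 0.05% sodium, and the normal salt group was 4 male C57Bl/6j mice kept for 8 weeks on food with 0.4% sodium. All 8 mice were 16 weeks old, and their hearts were taken under pentobarbital. The whole left-sided chamber wall, septum and apex included, was homogenised in 1 piece, so each value is an average over all the cells of the chamber, and fewer cells of a type and less RNA per cell cannot be told apart.

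RNA was read on 4 two-colour Agilent arrays of 1 slide, each holding 2 mice of the same diet, 1 labelled with Cy3 and 1 with Cy5. Low salt mice 1 and 2 shared an array, as did low salt mice 3 and 4, normal salt mice 1 and 2, and normal salt mice 3 and 4. Since each array held a single diet, an array's place and its diet cannot be told apart beyond the spread between the 2 arrays of a diet. The median spot intensity of a mouse lay between 116 and 147 units against a median background of 15.5 to 33.5 units, and 53% to 66.3% of the spots were well above background. All 8 cardiomyocyte markers of a first list were above background. Their mean log2 intensities were 16.78 to 17.41 in the low salt mice and 16.84 to 17.50 in the normal salt mice. In both diets the Cy5 mice read higher than the Cy3 mice.

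One-carbon metabolism moves single carbon units, most of them taken from serine, on the cofactor folate. In mitochondria SHMT2 takes the carbon from serine, MTHFD2 oxidises it and MTHFD1L releases it as formate, which leaves for the cytosol and feeds the synthesis of purines, thymidylate and methyl groups. The integrated stress response begins with kinases that phosphorylate the translation factor eIF2alpha, which slows protein synthesis as a whole while ATF4 is translated more. ATF4 then turns on genes of serine and asparagine synthesis, of the mitochondrial folate pathway and of stress signalling. In mouse hearts with defective mitochondria these genes are known to rise together, along with the secreted hormone GDF15.

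The probes behind the genes that differed most between the diets are shown first, since the values below rest on these stretches of transcript. Each probe has 60 bases, of which the first 30 are given here, 5′ to 3′, with the position the array design states in mm9. The Mthfd1l probe that stands for the gene lies at chr10:6190563-6190622 and the other one at chr10:6198416-6198475, both on the minus strand. The Mthfd1l promoter window below is on the plus strand of another build, GRCm38.p6, and how these placements relate was not checked. The Gdf15 probe lies at chr8:73153293-73153352 on the minus strand, and the Atf4 probes lie at chr15:80087902-80087961 and chr15:80086639-80086698 on the plus strand. The design does not say which exon or untranslated region a probe lies in.
Mthfd1l, first probe: ctttgcaagagtgtgaactaaaagctaatg
Mthfd1l, second probe: acagaaacggagcaagttaaaggcttgttc
Gdf15: ctgggtggatggattgtgtatttatttaaa
Atf4, first probe: ggtgctttgtgcttgtacatagtcttgtgt
Atf4, second probe: tcttcacgaaatccagcagcagtgttgctg

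ATF4 binds DNA together with C/EBP proteins at C/EBP-ATF response elements, whose core reads TGATGNAA. RefSeq promoter windows of 300 bases (GRCm38.p6) were available for all 10 genes, 12 windows in all, since Psat1 and Gdf15 have 2 each. On either strand, TGATGNAA was present in the windows of 2 of the 10 genes, Asns and Trib3, and in 3.97% of all 32851 windows. The looser TGNTGNAA, which includes the first motif, was present for 4 genes, Asns, Trib3, Psat1 and Phgdh, and in 14.8% of all windows. The TGATGNAA of Trib3 lies 15 to 22 bases after its start site, beyond the stretch shown here. The remaining 6 genes had no match to these letters in their windows. The 150 bases before the start site are shown for 3 genes with a match and for Mthfd1l and Gdf15, the genes with the largest diet differences, which have none; capitals mark the match.
Asns, chr6:7693210-7693359, minus strand: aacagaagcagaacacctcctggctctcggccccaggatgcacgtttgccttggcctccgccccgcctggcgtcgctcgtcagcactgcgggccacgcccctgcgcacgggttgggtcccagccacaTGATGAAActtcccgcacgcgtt
Trib3, chr2:152344061-152344210, minus strand: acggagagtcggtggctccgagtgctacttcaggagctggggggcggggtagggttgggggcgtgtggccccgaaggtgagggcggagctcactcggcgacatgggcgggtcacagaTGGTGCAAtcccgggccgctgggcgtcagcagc
Psat1, chr19:15925060-15925209, minus strand: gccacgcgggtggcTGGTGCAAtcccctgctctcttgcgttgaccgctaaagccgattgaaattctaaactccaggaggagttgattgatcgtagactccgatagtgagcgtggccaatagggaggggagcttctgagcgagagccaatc
Mthfd1l, chr10:3972925-3973074, plus strand: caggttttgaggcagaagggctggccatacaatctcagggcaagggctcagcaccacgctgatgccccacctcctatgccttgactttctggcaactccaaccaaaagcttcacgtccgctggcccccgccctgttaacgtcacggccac
Gdf15, chr8:70632457-70632606, minus strand: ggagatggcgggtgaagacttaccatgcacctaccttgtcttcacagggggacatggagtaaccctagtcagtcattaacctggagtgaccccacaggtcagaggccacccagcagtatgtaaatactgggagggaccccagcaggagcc

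The 10 genes did not move as a block. Gdf15 was higher on low salt, Mthfd1l and Atf4 were lower, and the diet groups of these 3 genes did not overlap. The other 7 genes overlapped between the diets and differed by less than 0.25 on the log2 scale. Over the 10 genes, 7 differences were above 0 and 3 below, with a median of 0.06, beside a median of 0.01 over all 18250 genes tested. Of all genes, 12.9% had diet groups that did not overlap, 7.99% with low salt higher and 4.95% with low salt lower. Since these differences chose the 10 genes, nothing is read from their count beside that share.

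**Figure D1:**
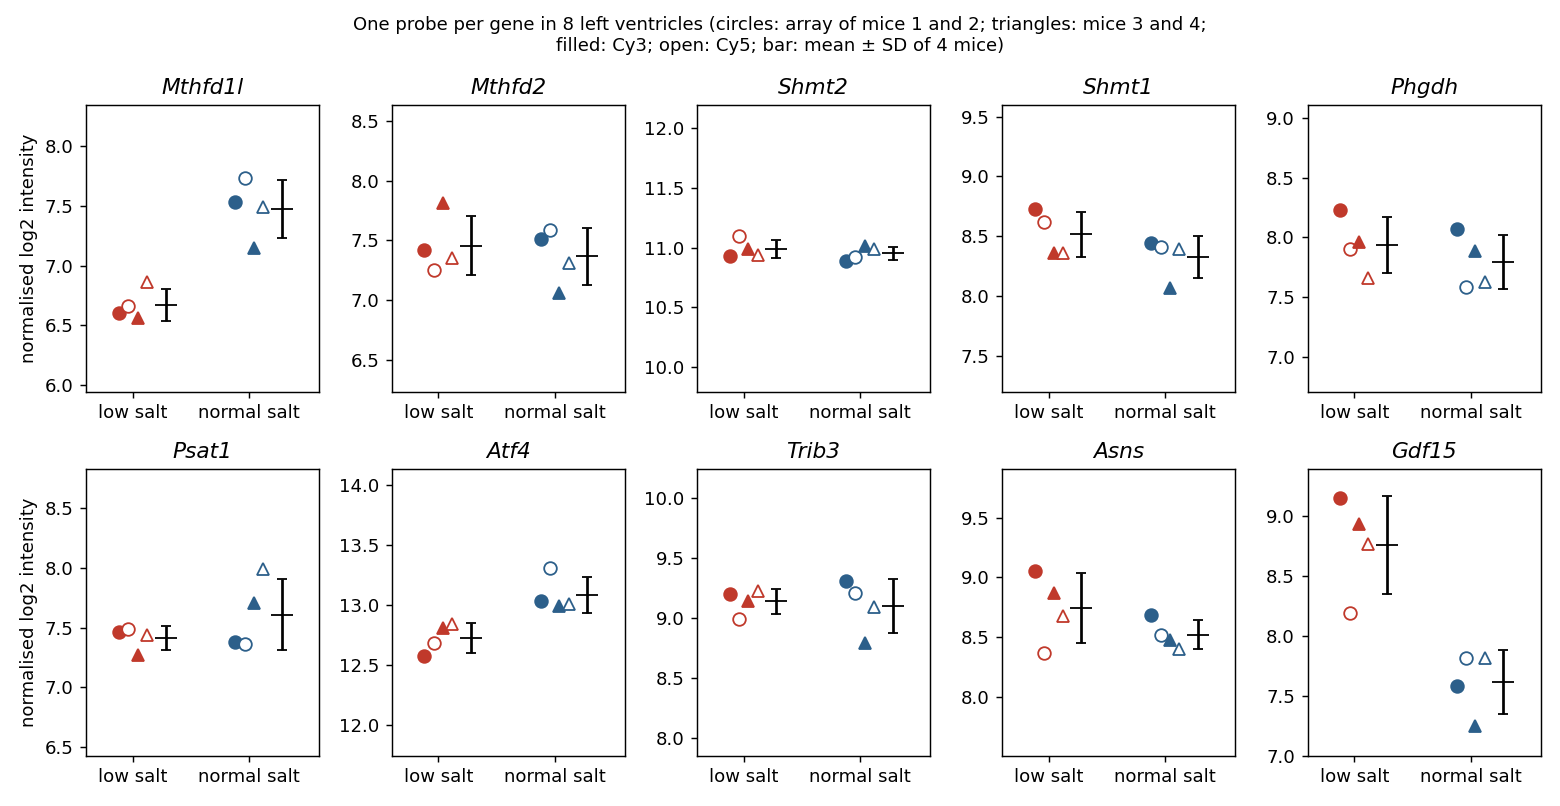
Normalised log2 intensity of each of the 10 genes (vertical axis) in the low salt mice (left in each panel) and the normal salt mice (right), 1 point per mouse, with the mean and SD of each group of 4. Circles are mice 1 and 2, which shared an array, triangles mice 3 and 4, filled points Cy3 and open points Cy5. The groups lie apart for Mthfd1l, Atf4 and Gdf15 and overlap for the other 7 genes.

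MTHFD1L is the mitochondrial enzyme that sets formate free from folate. Its brighter probe read 6.60, 6.66, 6.56 and 6.86 log2 units in low salt mice 1 to 4, against 7.53, 7.73, 7.15 and 7.49 in normal salt mice 1 to 4. Every low salt mouse lay below every normal salt mouse. The group means were 6.67 ± 0.13 on low salt and 7.47 ± 0.24 on normal salt (SD, n = 4 each), a log2 difference of -0.81 ± 0.13 (SE), or 1.75-fold lower, with 2 of the 4 low salt mice well above background. The second probe gave 6.75, 6.45, 6.92 and 6.69 in the low salt mice, against 7.27, 7.10, 7.37 and 7.27 in the normal salt mice, again without overlap. Its difference was -0.55 ± 0.10 (SE), and no fold is given, since this probe was well above background in 1 low salt mouse.

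Mthfd1l was a dim signal, which limits the size of this difference. Before normalisation the brighter probe's spots read 97.5, 76.8, 98.3 and 105 intensity units in the low salt mice, against 156, 228, 135 and 172 in the normal salt mice. Both probes were well above background in all 4 normal salt mice and passed the filter on dim probes through them. From the scanner software's own processed signal, scaled in each mouse to its upper quartile, the difference came to -2.10. No offset was added there, so for a dim probe this size cannot be set beside the difference above. As normalised here, the brighter probe differed by -0.76 among the Cy3 mice and -0.85 among the Cy5 mice. Neither low salt Cy3 mouse was well above background for it, whereas both low salt Cy5 mice were. Spots around the probe on the array differed between the diets by -0.02.

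MTHFD2 oxidises the folate-bound carbon in the mitochondrial matrix and is low in most adult tissues. Its probe read 7.42, 7.25, 7.81 and 7.35 in the low salt mice, against 7.51, 7.59, 7.06 and 7.31 in the normal salt mice. The groups overlapped throughout, and the difference of 0.09 ± 0.23 (SE) was smaller than its error. SHMT2, the enzyme that loads the carbon of serine onto folate in mitochondria, had the smallest error of the 10 transcripts. Its probe read 10.93, 11.10, 10.99 and 10.94 in the low salt mice, against 10.89, 10.92, 11.01 and 10.99 in the normal salt mice, a difference of 0.04 ± 0.09 (SE). Among Mthfd1l, Mthfd2 and Shmt2, the groups lay apart for Mthfd1l, which was dim in the low salt mice. The genes were chosen on these differences, so nothing further is read from this.

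SHMT1 is the cytosolic counterpart of SHMT2. Its brighter probe read 8.73, 8.62, 8.36 and 8.36 in the low salt mice, against 8.44, 8.41, 8.07 and 8.39 in the normal salt mice, a difference of 0.19 ± 0.16 (SE). The low salt values reached above the normal salt values in mice 1 and 2 and lay within their range in mice 3 and 4. The second probe gave a difference of 0.16 ± 0.18 (SE).

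PHGDH and PSAT1 catalyse the opening steps of serine synthesis from a glycolytic intermediate. The brightest of the 3 Phgdh probes read 8.23, 7.90, 7.96 and 7.66 in the low salt mice, against 8.07, 7.59, 7.89 and 7.63 in the normal salt mice, a difference of 0.14 ± 0.11 (SE). The array design places this probe at chr17:53337968-53338027, whereas the Phgdh gene and the other 2 probes lie on chromosome 3, so the transcript it reads is uncertain. The 2 probes on chromosome 3 gave differences of 0.04 ± 0.19 and 0.12 ± 0.13 (SE), and all 3 overlapped between the diets.

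Psat1 read 7.46, 7.49, 7.27 and 7.44 in the low salt mice, against 7.38, 7.36, 7.71 and 7.99 in the normal salt mice, a difference of -0.19 ± 0.16 (SE). The spread lay between the normal salt arrays, since mice 3 and 4 were high and mice 1 and 2 were level with the low salt mice. Without normal salt mice 3 and 4 the difference was 0.04, and without normal salt mice 1 and 2 it was -0.43. The second Psat1 probe was well above background in 1 mouse and did not pass the filter.

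ATF4 is the transcription factor at the centre of the integrated stress response, and its activity is set largely at the level of translation. Its brighter probe read 12.57, 12.68, 12.81 and 12.84 in the low salt mice, against 13.03, 13.31, 12.99 and 13.01 in the normal salt mice. The groups did not overlap, by a gap of 0.15. The means were 12.73 ± 0.12 on low salt and 13.08 ± 0.15 on normal salt (SD, n = 4 each), a difference of -0.36 ± 0.12 (SE), or 1.28-fold lower. The second, dimmer probe read 8.05, 8.47, 8.50 and 8.58 in the low salt mice, against 8.51, 8.62, 8.63 and 8.83 in the normal salt mice. It differed in the same direction, by -0.24 ± 0.14 (SE), but low salt mouse 4 lay above normal salt mouse 1, so its groups overlapped.

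TRIB3 is a pseudokinase induced by ATF4 that in turn dampens the response. It read 9.20, 8.99, 9.14 and 9.23 in the low salt mice, against 9.31, 9.21, 8.79 and 9.09 in the normal salt mice, a difference of 0.04 ± 0.17 (SE). ASNS makes asparagine and is a classic ATF4 target. It read 9.05, 8.37, 8.87 and 8.68 in the low salt mice, against 8.69, 8.52, 8.48 and 8.40 in the normal salt mice, a difference of 0.22 ± 0.18 (SE). The lowest of all 8 mice for Asns was a low salt mouse, and so was the highest. Trib3 and Asns were the genes with TGATGNAA in their promoter windows.

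GDF15 is a hormone of the TGF-beta superfamily that stressed cells secrete. Its probe read 9.15, 8.19, 8.94 and 8.77 in the low salt mice, against 7.58, 7.82, 7.25 and 7.82 in the normal salt mice. Every low salt mouse lay above every normal salt mouse, by a gap of 0.37. The means were 8.76 ± 0.41 on low salt and 7.62 ± 0.27 on normal salt (SD, n = 4 each), a difference of 1.15 ± 0.40 (SE), or 2.21-fold higher. Raw spots read 446, 262, 472 and 565 intensity units in the low salt mice, against 163, 242, 148 and 229 in the normal salt mice.

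The Gdf15 difference had the largest error of the 10 genes, and the dyes differed in its size. Among the Cy3 mice (numbers 1 and 3) it was 1.63, and among the Cy5 mice (numbers 2 and 4) it was 0.66. The middle 90% of all genes lay between -0.43 and 0.42.

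**Figure D2:**
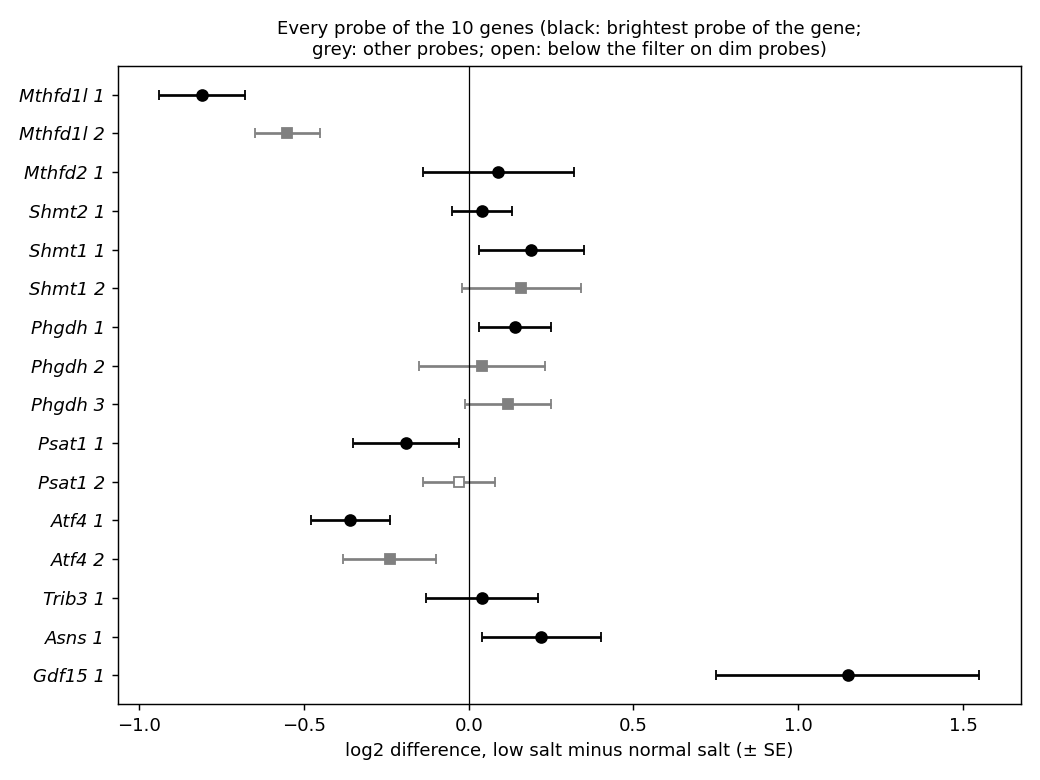
Log2 difference, low salt minus normal salt (horizontal axis), of every probe of the 10 genes with its standard error, the brightest probe of each gene in black, its other probes in grey, and the Psat1 probe below the filter open. Both Mthfd1l probes lie left of the middle 90% of all genes (-0.43 to 0.42) and the Gdf15 probe right of it, while the other probes lie inside.

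Some other marker lists had median differences away from 0, though the list means of the mice overlapped between the diets. The 8 endothelial markers, all above background, averaged 10.78 to 11.12 log2 units in the low salt mice and 11.08 to 11.47 in the normal salt mice, with a median difference of -0.31. Of 9 atrial markers 7 were above background (Upk3b and Bmp10 were not), with a median difference of -0.56. They averaged 9.71, 11.10, 10.31 and 10.29 in low salt mice 1 to 4, against 10.10, 11.20, 11.83 and 11.75 in normal salt mice 1 to 4. The highest were normal salt mice 3 and 4, which shared an array. Of 6 macrophage markers 5 were above background (Cd163 was not), averaging 9.92 to 10.24 in the low salt mice and 9.68 to 10.03 in the normal salt mice, with a median difference of 0.26. Of 48 markers above background in 10 lists of cell types, none passed the adjusted p of 0.05 in the limma fit and 7 had an unadjusted p under 0.05 (11.0% of all genes did), and their part in the differences of Mthfd1l, Atf4 and Gdf15 was not tested.

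Around the 10 genes, 7 lists of their pathways held 137 genes, of which 128 were tested. Of these, 2 rose on low salt and none fell at an adjusted p of 0.05 in the limma fit, or 1.56%, beside 0.789% of all genes (137 higher, 0.751%, and 7 lower, 0.0384%). At an unadjusted p under 0.05 there were 9 (7.03%), beside 11.0% of all genes (2013). With mouse number as a block, 3 list genes passed the adjusted threshold, beside 211 genes higher and 20 lower in all, and 21 list genes and 3137 of all genes had an unadjusted p under 0.05. The median difference over the lists was 0.0, with 14 genes (10.9%) whose diet groups did not overlap, beside 12.9% of all genes.

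Among the enzymes and carriers of folate metabolism, 22 of 25 were tested and none passed the adjusted threshold or an unadjusted p of 0.05 in the limma fit, with a median difference of 0.07. Mthfd2l, the isozyme of MTHFD2 found in adult mitochondria, differed by 0.20 ± 0.10 (SE, adjusted p = 0.481). Tyms, which makes thymidylate, differed by 0.23 ± 0.12 (SE, adjusted p = 0.512). Mthfd1, the cytosolic enzyme that takes up the formate released by MTHFD1L, differed by -0.21 ± 0.18 (SE, adjusted p = 0.675), with low salt mice 1 and 2 at 9.93 and 9.94 and mice 3 and 4 at 10.63 and 10.47. Its normal salt mice read 10.40, 10.40, 10.49 and 10.52, so both low salt mice of 1 array were low and both of the other were not. Gldc, of the glycine cleavage system, and Slc25a32, the mitochondrial folate carrier, differed by -0.03 and 0.06, and Aldh1l2, which burns formyl-folate to carbon dioxide, by -0.17. The gene of this list farthest below 0, Dld, named after its value was seen, stood at -0.62. For Dld, low salt mice 1 and 2 read 11.94 and 12.22 and mice 3 and 4 read 13.50 and 13.33. The normal salt mice lay between 13.24 and 13.50. The second Dld probe gave 0.22.

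Of 17 genes of serine, glycine and sulfur amino acid supply, 16 were tested and none passed the adjusted threshold, with a median of -0.06 and 1 gene at an unadjusted p under 0.05 in the limma fit. Psph, which completes serine synthesis after PSAT1, differed by -0.05 ± 0.14 (SE). The glutamine and neutral amino acid carrier Slc1a5 differed by -0.69 ± 0.27 (SE, adjusted p = 0.417). Sfxn2, a member of the sideroflexin family that includes mitochondrial serine carriers, differed by -0.46 ± 0.22 (SE, adjusted p = 0.482), while its second probe gave -0.03.

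The genes of purine and pyrimidine synthesis, a main use of one-carbon units, gave 1 rise among 16 tested, with a median of -0.06. That gene was Adssl1, the muscle isozyme that turns inosine monophosphate towards adenosine monophosphate. It read 14.15, 13.72, 14.00 and 13.75 in the low salt mice, against 13.11, 13.02, 12.83 and 12.87 in the normal salt mice, a difference of 0.95 ± 0.15 (SE, limma adjusted p = 0.0338, higher in 4 of 4 low salt mice). The spots around it on the array also differed, by 0.36, and after this local trend was subtracted the difference was 0.59 (adjusted p = 0.142). Whichever mouse was left out it no longer passed, with limma adjusted p between 0.0532 and 0.107.

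The aminoacyl-tRNA synthetases listed, mostly cytosolic and many of them ATF4 targets, gave 1 rise among 20 tested, with a median of 0.07. Qars, which charges glutamine onto its tRNA, read 12.56, 12.51, 12.49 and 12.34 in the low salt mice, against 11.75, 11.79, 11.33 and 11.30 in the normal salt mice. The groups lay well apart, with a difference of 0.93 ± 0.15 (SE, limma adjusted p = 0.0338). Its neighbouring spots differed by 0.22, and with the local trend subtracted the difference was 0.71 (adjusted p = 0.0525). Whichever mouse was left out, the limma adjusted p lay between 0.0538 and 0.108.

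The kinases that start the integrated stress response differed by less than their errors. Eif2ak1 (heme-regulated), Eif2ak2 (PKR), Eif2ak3 (PERK) and Eif2ak4 (GCN2) differed by 0.01, 0.03, -0.03 and 0.04, each with an SE of at least 0.10. Ppp1r15a, whose product helps dephosphorylate eIF2alpha, differed by -0.07 ± 0.15 (SE). Among 18 tested genes of this group the median was 0.02 and none passed the adjusted threshold in the limma fit, with 2 at an unadjusted p under 0.05. Dele1, which relays mitochondrial stress to EIF2AK1, differed by 0.90 ± 0.19 (SE, adjusted p = 0.0992), in a stretch of the array where neighbouring spots differed by 0.35. With the local trend subtracted it differed by 0.55 (adjusted p = 0.218). Eif2b5, a subunit of the exchange factor of eIF2, differed by 0.44 ± 0.17 (SE, adjusted p = 0.397), with neighbouring spots at 0.25.

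Partners and targets of ATF4 went in both directions, with a median of -0.04 over 25 tested, none past the adjusted threshold and 3 at an unadjusted p under 0.05 in the limma fit. Chac1, a glutathione-degrading enzyme, read at least 9.49 in the low salt mice, against at most 9.21 in the normal salt mice. The groups thus did not overlap, and the difference was 0.69 ± 0.20 (SE, adjusted p = 0.232), or 0.71 with the local trend subtracted. Ddit4, an inhibitor of mTORC1 signalling, lay on the other side at -0.66 ± 0.18 (SE, limma adjusted p = 0.223), also without overlap. In this list 8.0% of the tested genes did not overlap, beside 12.9% of all genes. Ddit3 (CHOP) differed by -0.17 ± 0.11 and Atf3 by -0.27 ± 0.40, whereas Atf5 differed by 0.24 ± 0.12 and Sesn2 by 0.20 ± 0.12 (SE). The proline synthesis genes Aldh18a1 and Pycr1 differed by 0.14 ± 0.12 and 0.22 ± 0.18, and Pck2, the mitochondrial PEP carboxykinase, by -0.09 ± 0.10 (SE). Pycr1 was dim, well above background in 2 low salt and 2 normal salt mice. Pck2, also dim, was so in 3 low salt and 4 normal salt mice.

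Fgf21, the other hormone known to be secreted in mitochondrial stress, was not well above background in any mouse, and the same held for Slc7a11, the cystine carrier. No diet difference is given for either. The 13 genes of mitochondrial protein quality control stayed between -0.14 and 0.36, with a median of -0.04 and none at an unadjusted p under 0.05 in the limma fit. Clpp, a matrix protease, differed by 0.21 ± 0.12 (SE, adjusted p = 0.525) and Ubl5 by -0.14 ± 0.10 (SE, adjusted p = 0.610).

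**Figure D3:**
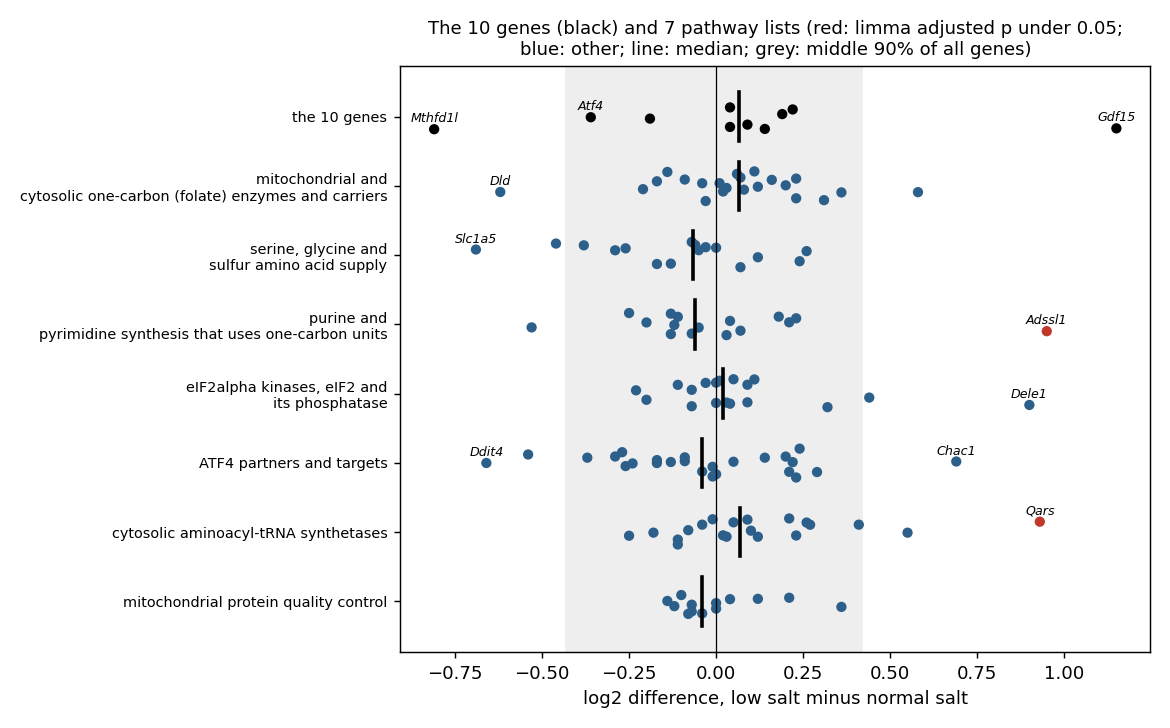
Log2 difference, low salt minus normal salt (horizontal axis), of the 10 genes (black) and of each tested gene in 7 pathway lists, with list medians as vertical lines, genes at a limma adjusted p under 0.05 in red, and the middle 90% of all genes in grey. Every list median lies between -0.06 and 0.07, and the red points are Adssl1 and Qars.

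Likeness over the 8 mice was ranked among genes with a standard-form symbol only. Those whose intensity was most like Mthfd1l were Rapgef5, Rnf167 and Sncg, with Pearson correlations of 0.981, 0.975 and 0.975. They differed between the diets by -0.39, -0.40 and -0.43. Most like Gdf15 were Ntsr2, Daglb and Pmepa1, at 0.985, 0.972 and 0.971, with differences of 0.52, 0.17 and 0.41. Each correlation runs over 8 mice that share 4 arrays and fall into 2 diets, and describes likeness in these mice only. None of these 6 genes belongs to the 7 pathway lists.

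**Figure D4:**
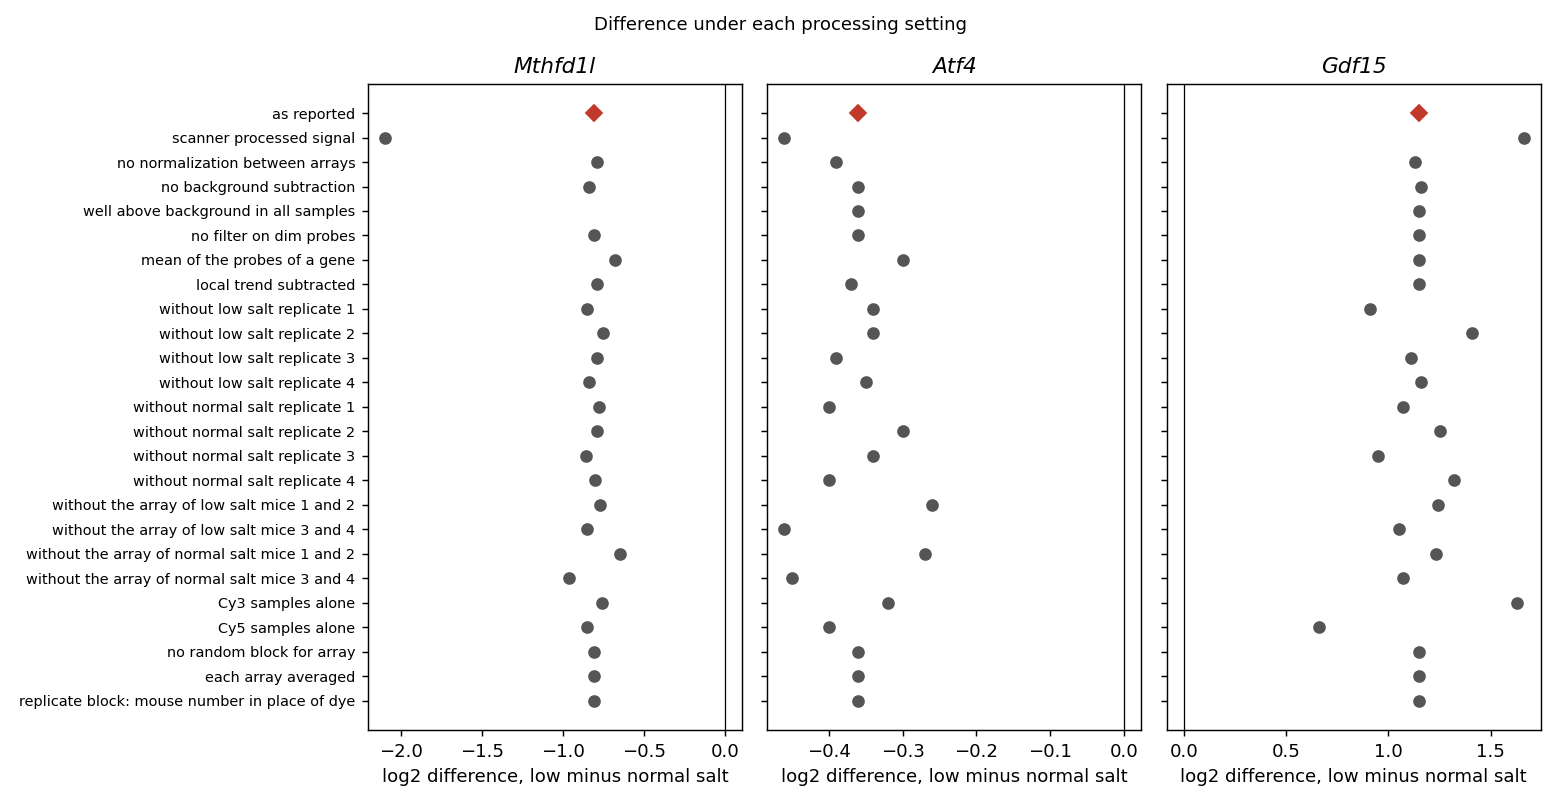
Log2 difference, low salt minus normal salt (horizontal axes), of Mthfd1l, Atf4 and Gdf15 as reported (red diamond) and under each other way of processing or set of mice (grey points). No point crosses 0, Mthfd1l moves farthest to -2.10 with the scanner's processed signal, and it has no point where every mouse had to be well above background.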

How the data were processed

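Per the file headers, the deposited tables are single-array output of Agilent Feature Extraction 11.5.1.1 (protocol GE2_1105_Oct12), and the intensity columns of both dyes, with background and flags, were used. The series' value table was not used. Steps computed here, with R 4.3.3, limma 3.58.1 and statmod 1.5.0, were normexp background correction (offset 50), loess within arrays with control spots at weight 0, and Aquantile between arrays, giving a log2 intensity per dye and mouse. A probe had to be well above background in at least 4 of 8 samples, and the brightest passing probe stood for its gene, leaving 18250 genes. limma fitted diet and dye, with the array as a random block (correlation 0.565), and p-values were adjusted by Benjamini-Hochberg over all genes, with a threshold of 0.05. Folds understate the change of dim probes, and the number of arrays limits the precision.

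The local trend is the running median of deviations within 12 rows and 6 columns of a spot. Probe names were updated by accession through RefSeq. The 10 genes and the pathway and marker lists were chosen with earlier results of these data known. Besides the 10 genes, the text names in each list up to 4 genes past the threshold, or else the 2 with the smallest p. It also names a fixed set of one-carbon and stress genes, and the 3 genes most correlated with Mthfd1l and with Gdf15. That ranking kept symbols made of a capital followed by small letters, digits or hyphens, and left out predicted and clone names. One gene of the fixed set is not reported here. Mice with the same number share a dye, and their deviations from the group means correlated by 0.304, 0.142, 0.163 and 0.192 for numbers 1 to 4 (within a dye, 0.208 and 0.105), so the fit with mouse number as a block is given beside the counts it moves.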

Additional observations from a re-analysis of the deposited data

Results flagged for a closer look

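Of 20 groups of 4 mice checked (10 genes in 2 diets), 2 held a mouse far from the others, and chance gives about 1 in 20. In Shmt1, normal salt mouse 3 read 8.07 beside 8.39 to 8.44 in the other normal salt mice, and its gap was 0.848 of the group's range, above Dixon's critical value for 4 samples. Without that mouse the Shmt1 difference was 0.10 in place of 0.19. In Atf4, normal salt mouse 2 read 13.31 beside 12.99 to 13.03, a gap of 0.874 of the range. Without that mouse the Atf4 difference was -0.30 in place of -0.36.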

How the results depend on the processing

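Every alternative was planned. The count of the 10 genes whose diet groups did not overlap was 2 with the processed signal, without normalisation between arrays and with the filter on all mice, and leaving out mice, arrays or a dye cannot lower it. Mthfd1l (where it had a value), Gdf15, Atf4, Shmt1, Phgdh and Asns kept their direction under every alternative, Atf4 between -0.46 and -0.26, whereas Psat1, Shmt2, Mthfd2 and Trib3 each crossed 0 in some. For Mthfd1l, Gdf15 and Atf4, groups that do not overlap fix the direction when mice are left out, so it is no sign of stability there. Mthfd1l had no value when every mouse had to be well above background. Leaving out 1 mouse, the Gdf15 difference lay between 0.91 and 1.41. Genes counted higher and lower at the limma threshold, 137 and 7 as reported, depended on the setting, and the cause was not tested. The scanner's processed signal gave 29 higher, subtraction of the local trend 57, and the filter on all mice 2 lower. Leaving out low salt mice 1 to 4 in turn gave 63, 55, 69 and 51 higher and 1, 2, 3 and 1 lower, and leaving out normal salt mice 1 to 4 gave 72, 64, 52 and 90 higher and 1, 1, 3 and 19 lower. Leaving out whole arrays gave 73 higher (low salt mice 1 and 2), 438 higher and 639 lower (low salt mice 3 and 4), 207 higher and 62 lower (normal salt mice 1 and 2) and 55 lower (normal salt mice 3 and 4). No random block for array gave 483 and 146. No genes passed in limma without normalisation between arrays (782 at an unadjusted p under 0.05), with Cy3 alone (1861), Cy5 alone (1265) or each array averaged (1556). With mouse number as a replicate block there were 211 higher and 20 lower. Of the pathway genes, 2 past the threshold became 3 with the replicate block, 8 without low salt mice 3 and 4, 4 without the random block, and 0 with the processed signal, without normalisation between arrays, with the local trend subtracted, with 1 mouse left out (0 to 0), without normal salt mice 3 and 4, without low salt mice 1 and 2, with either dye alone and with arrays averaged (5 to 16 at an unadjusted p under 0.05 in limma).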
